A study of Mus musculus with 96 samples.

Results

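The 6 libraries labelled lung were compared with the 90 libraries of the 15 other tissues of the series, out of 96 libraries in all. Each tissue had 6 libraries, 3 from wild-type mice and 3 from *Scx*-/- mice, all 3 weeks old. The members are therefore the lung libraries themselves, taken by their tissue label, and every gene was measured as lung against the mean of the 15 other tissues, each tissue weighing the same. The study extracted total RNA from whole frozen organs and sequenced libraries enriched for the 3′ ends of RNA with poly-A tails, so each lung library holds airways, alveoli, vessels and blood together. *Scx* encodes scleraxis, a transcription factor of tendon and ligament progenitors, and the sources used here give neither the strain, the sex, nor the way its deletion was made. The labels do not say which libraries came from the same mouse, so the spread between libraries may be in part technical. In the main fit the p-values rest on a spread shared by genes of like level. A gene's own spread between libraries did not enter them, so a gene with counts in 1 lung library could still be called.

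The lung exchanges gas across alveoli, which are lined by flat alveolar type 1 cells and by alveolar type 2 cells that make surfactant, a film of lipid and protein that lowers surface tension. The airways above them are lined by ciliated cells and by secretory (club) cells, which release secretoglobins and metabolize foreign compounds. Around the alveoli lie a dense capillary bed, elastic fibres made by fibroblasts, and resident macrophages. The transcription factor NKX2-1 sets the identity of lung epithelium, and FOXF1 that of lung mesenchyme and capillaries.

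The lung libraries held 46732 to 341964 counts and 5503 to 10792 genes with at least 1 count, against 11244 to 1658192 counts over the 96 libraries. CPM values are counts scaled to a common library total and are not adjusted for gene length, so they are compared between libraries and not between genes. Pearson's r between lung libraries on log2(CPM + 1) was 0.514 to 0.762 over 15 pairs, and the library nearest to each lung library was another lung library. Among the other tissues, bladder was the most alike, with a mean r of 0.619, while wild-type replicate 1, the deepest lung library, had a mean r of 0.708 with bladder and 0.675 with the other lung libraries, and *Scx*-/- replicate 2 had 0.679 and 0.662. *Scx* itself had 6 counts, all in 1 of the 3 wild-type lung libraries, and 0 counts in the 3 *Scx*-/- lung libraries. At that level the deletion cannot be checked in lung alone, and over the other tissues *Scx* had 74 counts in 11 of 45 wild-type libraries and 9 counts in 1 of 45 *Scx*-/- libraries.

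The label was checked by markers of the cell types of lung. *Sftpc*, *Sftpa1* and *Sftpd* of type 2 cells, *Hopx* and *Aqp5* of type 1 cells, *Scgb1a1*, *Scgb3a2* and *Cyp2f2* of secretory cells, *Foxj1* of ciliated cells, and *Nkx2-1* all had their highest tissue mean in lung. *Sftpb*, *Ager* and *Pdpn* could not serve, because they are listed at 0 in all 96 libraries. They are among 22 listed genes at 0 throughout, and the cause was not tested.

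Of 22493 genes tested, 1749 were higher in lung than the mean of the other tissues, which is 7.78% of the genes, and 309 were lower, which is 1.37%, so that 9.15% differed. A gene counted as higher or lower at an adjusted p under 0.05 (edgeR quasi-likelihood test, Benjamini-Hochberg) and a change of more than 2-fold. The median log2 fold change of all genes was -0.17, and the values below are given beside it. Counts of listed genes called are likewise to be read beside 7.78% higher and 1.37% lower of all genes. The lists were chosen with earlier results of these data known, so their counts describe the lists and do not test them. Higher genes made up 85.0% of the calls with the scaling used here and 95.3% with RLE size factors, which called 3002 higher and 149 lower. The mean of the tissues was taken on the log scale, so a gene very high in 1 other tissue could still be called higher in lung. DESeq2's Wald test called 727 higher and 504 lower, and it did not call 14 of the genes named here, mostly genes near 0 elsewhere such as *Scgb3a2* (log2 fold change 10.3, DESeq2 adjusted p 0.312) and *Nkx2-1* (7.28, DESeq2 adjusted p 0.528). The rest of the 14 were *Sftpd*, *Lamp3*, *Scgb3a1*, *Sec14l3*, *Rtkn2*, *Aqp5*, *Tbx5*, *Edn1*, *Bpifb1*, *Cd79b*, *Marco* and *Muc5b*. Lung had the highest tissue mean for 956 of the 1749 genes (54.7%), and 663 of the 1749 had a count in all 6 lung libraries, while 120 had a count in only 1.

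A stricter set of 62 genes, 0.276% of those tested, was higher in lung than in each of the 15 tissues taken one at a time. These 62 genes took 11.6% of lung counts, from 9.62% to 14% in the 6 libraries, and a mean of 0.161% of the counts of the other tissues. Their fold over the next tissue ran from 2.56 to 2622 with a median of 7.15. For 32 of them no library of any other tissue reached the lowest lung library. The set held 14 genes listed here as alveolar epithelial, 16 listed as endothelial and 4 listed as airway secretory, and 22 genes in none of the lists, such as *Adgrf5* and *Lyve1*. The tissue next to lung was bladder for 11, heart for 10, and rectum and spleen for 7 each.

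**Figure D1:**
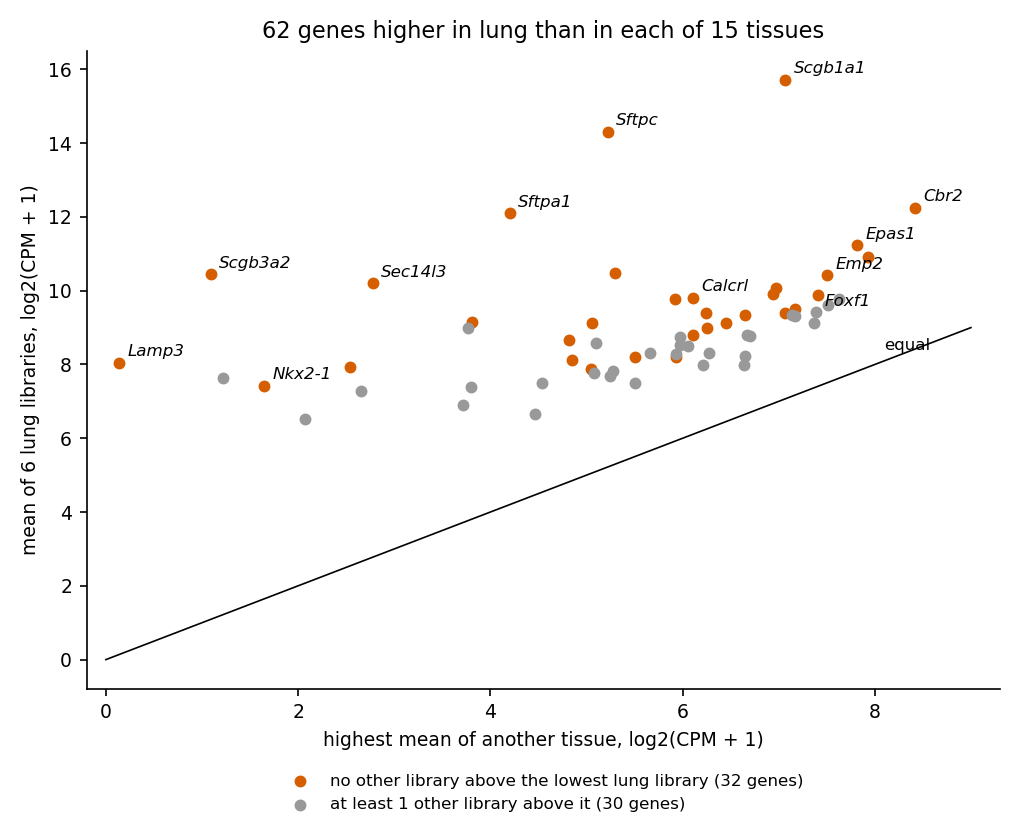
The 62 genes higher in lung than in each of 15 other tissues, each a point, with the mean of 6 lung libraries (y axis) against the highest mean of another tissue (x axis), both in log2(CPM + 1). Every point lies above the line of equal level, and the 32 genes in orange had no library of another tissue above the lowest lung library.

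The promoters of these genes were read because NKX2-1 and forkhead factors are known to bind promoters of surfactant and secretoglobin genes. RefSeq gave a promoter (build GRCm38.p6) for 41 of the 62 genes. *Sftpc*, *Sftpd*, *Scgb1a1*, *Scgb3a2* and *Foxf1* are among the 21 without one, so the shares below leave out most of the surfactant protein and secretoglobin genes of the set. The 3 shown are those of a type 2, a secretory and an endothelial gene that hold an NKX2-1 core, CTCAAG or CAAGTG on either strand, and each is the 250 bases before the gene's start, on the gene's strand, with the cores in capitals. *Sftpa1* holds CTCAAG 166 bases before the start and CAAGTG on the opposite strand 202 and 14 bases before it. *Scgb3a1* holds both cores on the opposite strand, overlapping, at 172 and 174 bases, and *Tek* holds CAAGTG at 217 bases.
Sftpa1 promoter, chr14:41131538-41131787, plus strand: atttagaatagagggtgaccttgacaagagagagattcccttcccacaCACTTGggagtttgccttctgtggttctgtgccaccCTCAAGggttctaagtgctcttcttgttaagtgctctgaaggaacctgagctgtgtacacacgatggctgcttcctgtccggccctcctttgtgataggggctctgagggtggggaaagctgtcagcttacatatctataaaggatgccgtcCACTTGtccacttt
Scgb3a1 promoter, chr11:49663345-49663594, plus strand: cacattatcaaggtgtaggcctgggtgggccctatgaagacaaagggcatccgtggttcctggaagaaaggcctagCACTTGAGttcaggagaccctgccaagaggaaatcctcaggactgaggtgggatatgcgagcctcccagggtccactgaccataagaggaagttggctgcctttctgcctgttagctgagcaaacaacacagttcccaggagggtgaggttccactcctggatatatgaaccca
Tek promoter, chr4:94739039-94739288, plus strand: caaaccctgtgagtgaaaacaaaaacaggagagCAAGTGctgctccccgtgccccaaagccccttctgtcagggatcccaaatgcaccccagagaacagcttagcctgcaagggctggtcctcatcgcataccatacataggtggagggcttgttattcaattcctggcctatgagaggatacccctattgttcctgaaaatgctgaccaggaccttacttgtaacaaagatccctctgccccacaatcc
At least 1 of the 2 cores stood before 8 of the 41 genes (19.5%), against 25.3% of all 27025 genes with a promoter of the same length. A gene counted when any of its listed promoters held a core, here and in the shares that follow. CTCAAG alone was in 12.2% against 15.2%, and CAAGTG alone in 12.2% against 13.2%. The forkhead core TNTTTAC was in 14.6% against 12.4%, the GATA core AGATAA in 4.88% against 11.4%, and the TATA box TATAAA in 9.76% against 14.3%. No test was made of these shares. A match is a description of the sequence and not a binding site.

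Genes of alveolar type 2 cells, the surfactant makers, are described first. *Sftpc* (chr14:70520941-70524081, GRCm38) encodes surfactant protein C, a small hydrophobic protein of the surfactant film. It stood at 20528, 20864 and 17557 CPM in the wild-type lung libraries and at 22108, 17462 and 23262 CPM in the *Scx*-/- lung libraries, against a mean of 5.93 CPM over the other tissues. The 6 lung libraries lay within a narrow band that overlapped between genotypes, and the highest library of any other tissue, a muscle library, reached 132 CPM. The log2 fold change was 13.32 with an approximate SE of 0.25. *Sftpa1* (chr14:41131788-41136373) and *Sftpd* (chr14:41172212-41185198), neighbours on the chromosome, encode the surfactant collectins, which bind microbes. *Sftpa1* had 4190, 3980 and 3308 CPM in wild-type and 3661, 5122 and 6179 CPM in *Scx*-/- lung, a log2 fold change of 12.18 (SE 0.32, edgeR adjusted p 1.11e-319). *Sftpd* had 605, 877 and 620 CPM in wild-type and 215, 545 and 513 CPM in *Scx*-/- lung, a log2 fold change of 8.97 (SE 0.48, edgeR adjusted p 9.58e-76). For both genes every lung library stood above every library of another tissue.

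*Slc34a2*, the phosphate transporter of type 2 cells, had 1553, 1519 and 1090 CPM in wild-type and 1430, 1086 and 1892 CPM in *Scx*-/- lung. Its next tissue was intestine, with a mean of 38.3 CPM, and its log2 fold change was 9.70. *Lamp3*, a membrane protein of the lamellar bodies that store surfactant, had 128 to 453 CPM in lung against at most 0.603 CPM in any other library and a log2 fold change of 9.05. All 19 of the 19 type 2 genes tested were higher in lung, with a median log2 fold change of 4.99, and 7 of them were higher than in each tissue. Some of them also serve other organs. *Napsa*, an aspartic protease, was higher against the mean (log2 fold change 4.23) and yet had 366 CPM in lung and 4294 CPM in kidney. *Lyz1*, a lysozyme, had 1099 CPM in lung and 1976 CPM in intestine, where Paneth cells make it, and it shares sequence with *Lyz2*, so reads may be split between them. The list took 3.25% of lung counts (2.79% to 3.8%), against 0.944% in intestine, the next tissue.

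Surfactant is mostly lipid, and the genes of its supply are active in many organs. Of 18 genes of surfactant lipid supply, 4 were higher and 14 did not pass the test, and the median log2 fold change was 0.68. RLE factors called 9 higher and library totals 8. *Scd1*, a fatty acid desaturase, had a log2 fold change of 2.94, *Lpcat1*, which remodels phosphatidylcholine, 4.25, and *Abca3*, which carries lipid into lamellar bodies, 2.50. *Prdx6*, an antioxidant enzyme that also cleaves phospholipids, had a log2 fold change of 1.91. *Fasn*, the fatty acid synthase, had a log2 fold change of 0.90 and an edgeR adjusted p of 0.13, and it passed only under RLE factors and under library totals.

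Alveolar type 1 cells cover most of the gas exchange surface. All 17 of the 17 genes tested from their list were higher in lung, with a median log2 fold change of 5.76, and they took 0.791% of lung counts (0.68% to 0.895%) against 0.227% in bladder. *Akap5*, a kinase anchor, had a tight range of 252 to 322 CPM over the 6 libraries, with a mean of 60 CPM in cortex as the next tissue. *Emp2*, a membrane protein, had 1418, 1391 and 827 CPM in wild-type and 1686, 1525 and 1361 CPM in *Scx*-/- lung against 180 CPM in bladder. *Aqp5*, a water channel, had 75.2 to 259 CPM, with wild-type replicates 2 and 3 the lowest, and 1 rectum library reached 267 CPM. *Rtkn2* split the libraries unevenly: wild-type replicates 1 and 2 stood at 383 and 599 CPM and the other 4 between 112 and 128 CPM. The groups overlapped, and its log2 fold change against the other tissues was 8.11 (SE 0.61). *Cldn18*, a tight junction claudin, had 479 CPM in lung and 696 CPM in stomach, and a log2 fold change of 8.17 against the mean. *Krt7* was likewise higher in bladder, with 1352 CPM against 364 CPM in lung, and *Col4a4*, a basement membrane collagen chain, had 398 CPM in lung and 444 CPM in kidney. Against stomach alone, 12 of the 17 type 1 genes were higher, where 3.31% of all genes were, and against kidney 13, where 3.93% were.

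**Figure D2:**
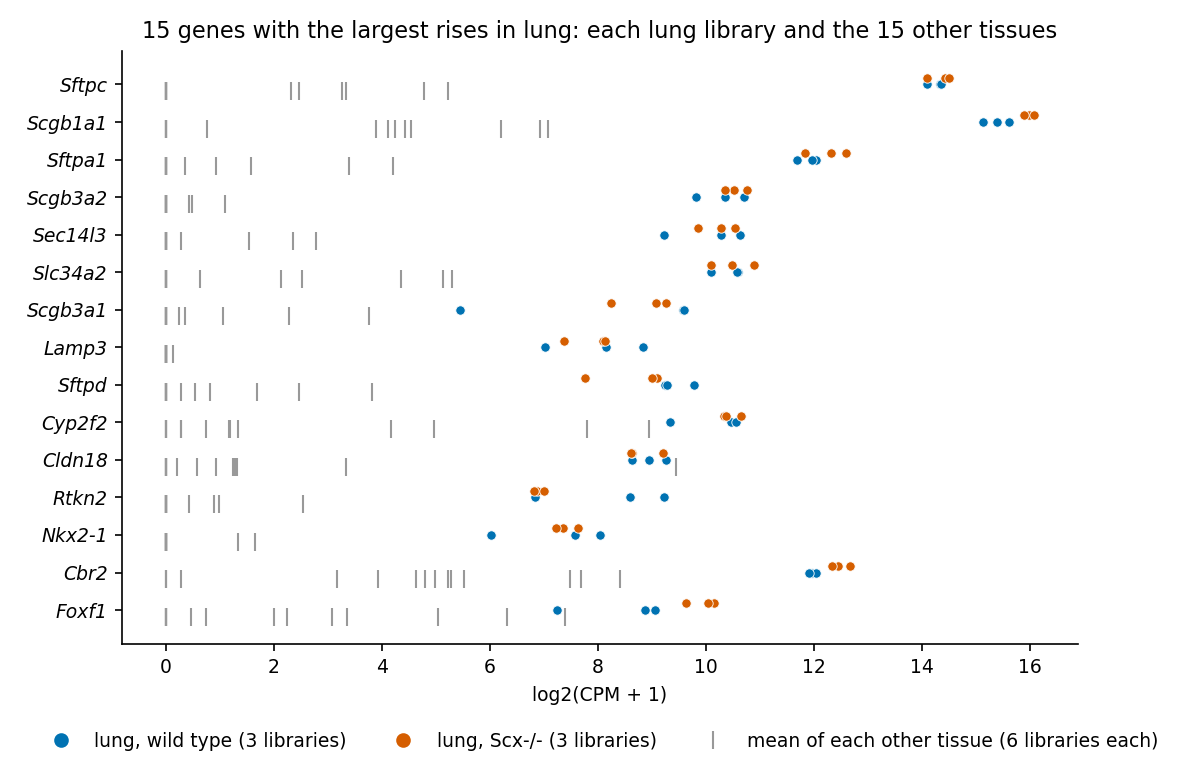
Levels in log2(CPM + 1) of the 15 genes with the largest rises in lung among those with a count in all 6 lung libraries, with a point for each lung library (blue, wild type; orange, *Scx*-/-) and a grey mark for the mean of each of the 15 other tissues. The lung points lie above all grey marks except for *Cldn18*, whose stomach mean is higher, and for wild-type replicate 3 of *Foxf1*, at 150 CPM against 167 CPM in bladder.

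Airway secretory genes include *Scgb1a1*, which was the most counted gene in 3 of the 6 lung libraries, with *Hbb-b1* the most counted in the other 3. *Scgb1a1* (chr19:9083642-9087956), the main secretoglobin of club cells, had 50137, 36014 and 42897 CPM in wild-type and 64455, 60822 and 69170 CPM in *Scx*-/- lung, against a mean of 133 CPM in rectum, the next tissue. Its log2 fold change was 13.31 (SE 0.22). The *Scx*-/- libraries all stood above the wild-type ones, but the difference between them, 0.80 on the log2 scale, had an edgeR adjusted p of 1, and the difference of the lung contrast between genotypes had a log2 value of 0.32 and also an adjusted p of 1. With 3 libraries of each genotype, groups can lie apart by chance, here and for the genes below. How many of all genes did so was not counted. *Scgb3a2*, another secretoglobin, had 899 to 1733 CPM in lung and at most 6.81 CPM in any other library, and *Scgb3a1* had 757, 42.8 and 771 CPM in wild-type and 537, 303 and 615 CPM in *Scx*-/- lung. The low value of *Scgb3a1* was that of wild-type replicate 2, the shallowest lung library, where it rests on 2 counts. *Cyp2f2*, the cytochrome P450 of club cells, had 1404, 642 and 1504 CPM in wild-type and 1603, 1284 and 1323 CPM in *Scx*-/- lung, and 1 liver library reached 1643 CPM. *Cbr2*, a carbonyl reductase, had 3854 to 6477 CPM, and *Sec14l3*, a lipid-binding protein of airway cells, 599 to 1579 CPM, each above every library of the other tissues. *Sec14l3* is counted in the type 1 and ciliated lists.

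Of 17 secretory genes tested, 13 were higher, with a median log2 fold change of 4.28, and 4 did not pass. DESeq2 called 6 of the 14 to which it gave an adjusted p. *Bpifb1*, *Muc5b* and *Muc5ac*, which belong to the mucous glands and goblet cells of larger airways, were low. *Muc5ac* had 0 counts in lung, *Muc5b* was called higher on counts in wild-type replicate 1 only, a call that 7 refits lost or turned, and *Bpifb1* had 16.3 CPM, against 1245 CPM in stomach. The call of *Bpifb1* as higher rests on the log mean, since its lung level was below the arithmetic mean of the other tissues. That call was lost with DESeq2, in the fit of 32 groups and without lung *Scx*-/- replicate 3. The secretory list took 5.99%, 4.35% and 5.3% of counts in the wild-type and 7.59%, 7.07% and 8.25% in the *Scx*-/- libraries, and *Scgb1a1* made up most of it.

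Ciliated cell genes were sparse at this depth. Of 19 tested, 11 were higher and 8 did not pass, with a median log2 fold change of 3.79 and 0.205% of lung counts. *Sec14l3*, which is also in the type 1 list, had a mean of 1179 CPM in lung and made up most of this share. DESeq2 called 1 of the 2 to which it gave an adjusted p, filterByExpr 5 of 7, the fit of 32 groups 7 of 19 and the older quasi-likelihood fit 17. *Foxj1*, the factor that drives motile cilia, had 17.6, 128 and 18.8 CPM in wild-type and 66.1, 61.5 and 130 CPM in *Scx*-/- lung, a log2 fold change of 6.31 (SE 0.92, edgeR adjusted p 5.45e-10). *Tppp3*, a tubulin-binding protein, had 498 CPM in lung and 273 CPM in rectum. *Ccdc113* and *Mcidas* had 0 counts in lung.

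**Figure D3:**
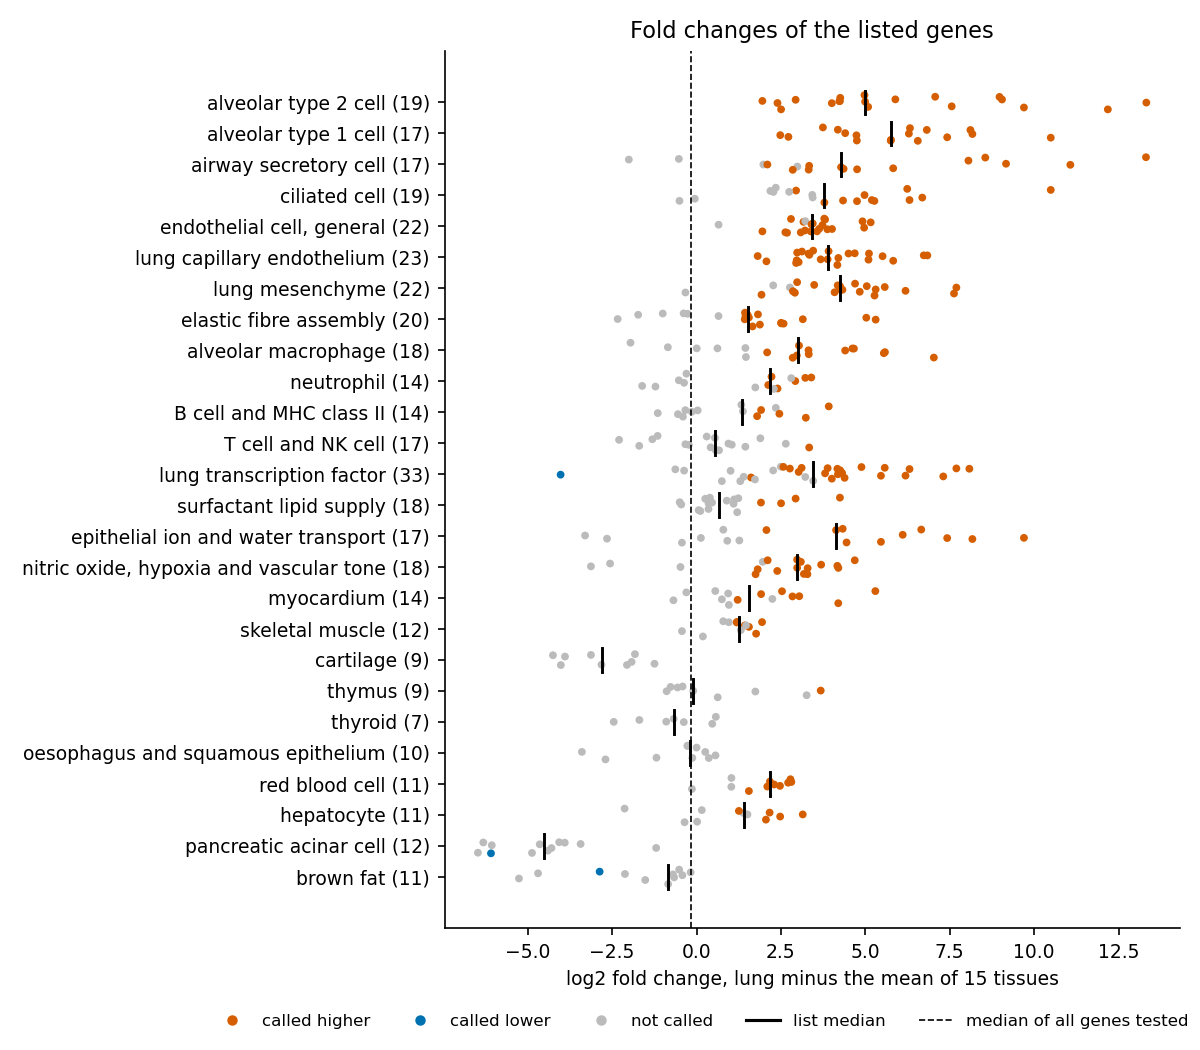
Log2 fold changes of the listed genes, lung minus the mean of 15 tissues (x axis), by list (y axis, number of genes tested in brackets). The medians (black bars) of the alveolar, airway, endothelial and mesenchymal lists lie right of the dashed line at the median of all genes, -0.17, and those of cartilage and pancreatic acinar cells lie left of it.

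Endothelial genes were mostly higher in lung. Of 22 general endothelial genes, 20 were higher, with a median log2 fold change of 3.42, and all 23 genes of the lung capillary list were higher, with a median of 3.88. In bulk samples more endothelial cells and more RNA per endothelial cell cannot be told apart, and the same holds for every cell type here. *Calcrl* and *Ramp2*, which form the adrenomedullin receptor, are an example of a pair: *Calcrl* had 1149, 471 and 1147 CPM in wild-type and 818, 717 and 1100 CPM in *Scx*-/- lung against 68.2 CPM in bladder, and *Ramp2* had a mean of 552 CPM against 86.3 CPM in heart. Both were higher than in each of the 15 tissues. *Cdh5*, the adherens junction cadherin of endothelium, had 1143, 621 and 658 CPM in wild-type and 587, 594 and 755 CPM in *Scx*-/- lung, against 143 CPM in the vascular libraries. *Tek*, the angiopoietin receptor, had 398, 42.8 and 282 CPM in wild-type and 322, 378 and 494 CPM in *Scx*-/- lung, with wild-type replicate 2 the lowest again and below the highest library of another tissue. *Erg* and *Mmrn2* did not pass, with log2 fold changes of 3.22 and 0.65. *Erg* was called higher with RLE factors, library totals, limma-trend and the older quasi-likelihood fit. The general list took 0.735% of lung counts (0.49% to 0.856%) against 0.138% in heart, the next tissue. Against heart alone 8 of the 22 genes were higher, and against the vascular libraries 11, where 2.71% of all genes tested were higher in each of these comparisons. The study found vascular-specific genes tied to brown fat cell differentiation, read this as contamination, and left the vascular libraries out of its later analysis. They held the highest share of brown fat genes, 1.48%, whose part in these counts was not tested.

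The capillary list holds genes of the vessels that take part in gas exchange. *Epas1* (chr17:86753864-86833410), which encodes the oxygen-sensing factor HIF-2 alpha, had 2278, 1947 and 1372 CPM in wild-type and 2860, 2752 and 3234 CPM in *Scx*-/- lung. The *Scx*-/- libraries were all higher than the wild-type ones, with a log2 difference of 0.85 and an edgeR adjusted p of 1, and the difference of the lung contrast between genotypes was 1.19, also with an adjusted p of 1. Every lung library stood above the highest library of another tissue, 347 CPM, and the log2 fold change was 4.17 (SE 0.24, edgeR adjusted p 3.83e-62). *Tmem100*, a BMP target of endothelium, had 550 to 1466 CPM against 59.8 CPM in heart. *Thbd*, the anticoagulant thrombomodulin, had 521 to 771 CPM against 99.6 CPM in rectum. *Ace*, the angiotensin converting enzyme, had 808 CPM in lung and 431 CPM in intestine, where 1 library reached 1207 CPM. *Aqp1*, the water channel of capillaries, was at 658 CPM in lung and 670 CPM in kidney and was higher than in only 6 tissues. Against heart and against the vascular libraries, 16 of the 23 capillary genes were higher in lung in each case.

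Of 18 genes of nitric oxide, hypoxia and vascular tone, 14 were higher (9 of 17 with DESeq2), with a median log2 fold change of 2.98. The receptors of the BMP pathway in pulmonary vessels were both higher than in each tissue, *Bmpr2* with a log2 fold change of 2.98 and *Acvrl1* with 4.20. *Gucy1a3*, the receptor subunit for nitric oxide, had a log2 fold change of 2.98, *Pde5a*, which degrades its product, 3.28, and *Edn1*, the vasoconstrictor endothelin, 3.69. *Hif1a*, the paralog of *Epas1*, did not pass, with a log2 fold change of -0.47 and 44.3 CPM in lung.

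Lung mesenchyme gave 19 higher genes of 22, with a median log2 fold change of 4.25 and 1.2% of lung counts. *Inmt*, a methyltransferase of alveolar fibroblasts, had 3559, 3638 and 4173 CPM in wild-type and 3752, 4774 and 5527 CPM in *Scx*-/- lung, a log2 fold change of 7.62, and liver was the next tissue with 1160 CPM. *Mfap4*, a microfibril protein, had 1924, 3039 and 2594 CPM in wild-type and 1851, 1279 and 811 CPM in *Scx*-/- lung. Here the *Scx*-/- libraries were all below the wild-type ones, with a log2 difference of -0.65 and an edgeR adjusted p of 1. The difference of the lung contrast between genotypes ran the other way, with 4.98 in wild-type, 6.24 in *Scx*-/- mice, a log2 value of 1.26 and an edgeR adjusted p of 1. All 6 libraries stood above the highest library of another tissue, 516 CPM. *Npnt*, an integrin ligand of basement membranes, had 1053 to 1842 CPM against 752 CPM in kidney, and *Limch1*, an actomyosin regulator, was higher than in each tissue with a log2 fold change of 4.70. *Foxf1* (chr8:121084386-121088154) had 465, 535 and 150 CPM in wild-type and 793, 1134 and 1044 CPM in *Scx*-/- lung. The genotypes did not overlap for *Foxf1*, and the log2 difference of 1.54 had an edgeR adjusted p of 1, as did the difference of the lung contrast between genotypes, 1.67. Its neighbour on the chromosome, the long noncoding *Fendrr*, was also higher than in each tissue, with a log2 fold change of 6.73. *Adh1* did not pass, with a log2 fold change of -0.33.

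Elastic fibres let the lung recoil after each breath. Of 20 genes of their assembly, 14 were higher and 6 did not pass, with a median log2 fold change of 1.53. The list took 0.905%, 0.922% and 1.19% of counts in the wild-type and 0.674%, 0.8% and 0.647% in the *Scx*-/- lung libraries, which do not overlap, and this difference was not tested. *Mfap4*, described above, is part of this list. *Eln*, elastin itself, had 4147, 3467 and 5602 CPM in wild-type and 2455, 3653 and 2768 CPM in *Scx*-/- lung, and it was second to the vascular libraries, which had 16518 CPM. The groups overlapped. *Ltbp2*, a binding protein of elastic microfibrils, was higher than in each tissue with a log2 fold change of 5.03, and *Lox*, the crosslinking oxidase, had a log2 fold change of 2.50 with bone at 632 CPM against 346 CPM in lung. *Fbln1* and *Fbn2* did not pass, with log2 fold changes of -1.73 and -2.33. *Fbln1* was called lower with libraries thinned to the smallest lung total, without liver and without spleen.

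**Figure D4:**
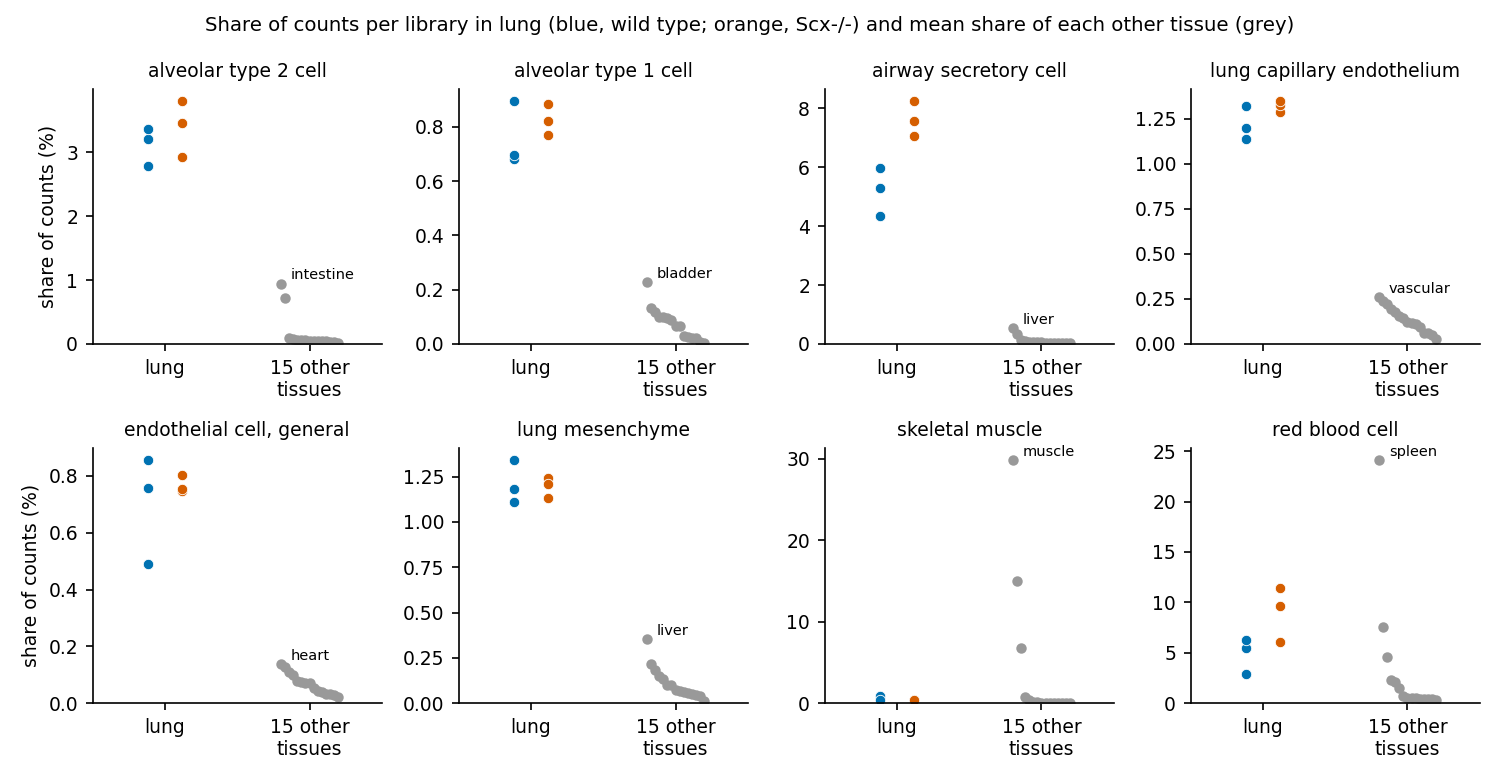
Share of counts (%) taken by 8 gene lists in each lung library (blue, wild type; orange, *Scx*-/-) and as the mean of each of 15 other tissues (grey). Lung is highest for the alveolar, airway, endothelial and mesenchymal lists, while muscle and spleen are highest for the skeletal muscle and red blood cell lists.

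Among transcription factors of lung, 21 of 33 were higher, 1 was lower and 11 did not pass, with a median log2 fold change of 3.45. DESeq2 called 9 of 23 higher. *Nkx2-1* (chr12:56531935-56536908) had 190, 64.2 and 263 CPM in wild-type and 198, 163 and 149 CPM in *Scx*-/- lung, against 2.14 CPM in spleen, the next tissue. The lung libraries overlapped between genotypes, no other library passed 12.8 CPM, and the log2 fold change was 8.08 (SE 0.66, edgeR adjusted p 1.24e-31). *Irx1* had a log2 fold change of 7.31 and *Tbx5* of 6.19, and *Foxp1* had one of 1.61. *Sox9*, a factor of distal lung buds in the embryo and of cartilage, was the lower one, with 1 count in each of 2 lung libraries, 197 CPM in cartilage and a log2 fold change of -4.02 (edgeR adjusted p 0.00928). Its call was lost without wild-type replicate 1 of lung, with libraries thinned to the smallest lung total and in the fit of 32 groups.

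Epithelial ion and water transport gave 10 higher genes of 17, with a median log2 fold change of 4.13. The 3 subunits of the epithelial sodium channel, which clears fluid from alveoli, were all among them, *Scnn1a* with a log2 fold change of 5.46, *Scnn1b* with 6.11 and *Scnn1g* with 6.66. The 7 remaining genes of the list did not pass the test.

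Immune genes were mixed. Of 18 alveolar macrophage genes, 12 were higher, with a median log2 fold change of 3.00, and DESeq2 called 6 of the 14 with an adjusted p. The list took 0.2% of lung counts, below its 0.405% in intestine and 0.353% in liver. *Chil3*, a chitinase-like protein, had 558, 1006 and 263 CPM in wild-type and 1331, 875 and 1221 CPM in *Scx*-/- lung, against 390 CPM in spleen, a log2 fold change of 7.03. *Marco*, the scavenger receptor of these macrophages, had counts in 1 lung library only, and its log2 fold change of 2.97 became -2.21 without *Scx*-/- replicate 2. Of 14 neutrophil genes 6 were higher (3 of 8 with an adjusted p in DESeq2), among them *S100a8* (log2 fold change 2.92), of which spleen had 1643 CPM and lung 185 CPM. Of 14 B cell and MHC class II genes 5 were higher, with 0 of 9 under DESeq2, 1 under limma-trend, and 3 each in the fit of 32 groups and without libraries under 50000 counts. Leaving out the first or second wild-type lung library gave 2 and 3. Of 17 T cell and NK cell genes 1 was higher, where 7.78% of all genes were. It was *Cd247*, whose counts came from 1 library and whose log2 fold change of 3.34 became -1.65 without *Scx*-/- replicate 3. *Cd79b*, one of the 5, lost its call under 17 of the alternatives.

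Genes of neighbouring or unrelated tissues were measured to see what else the lung libraries held. Cartilage genes, 9 in all, were at 0 in all 6, and of 7 thyroid and 10 squamous epithelium genes none was called. Of 9 thymus genes 1 was higher, where 7.78% of all genes were. It was *Cd8b1*, a T cell coreceptor chain, with 16 and 2 counts in wild-type replicates 1 and 2 and 0 in the other 4 libraries. Its call was lost without wild-type replicate 1, in the fit of 32 groups, with libraries thinned and with limma-trend. The thymus list took 0.0079%, 0.00428% and 0.015% of counts in the wild-type and 0.00165%, 0.000879% and 0.00186% in the *Scx*-/- lung libraries, shares that rest on a few counts in most libraries. Of 14 myocardial genes 7 were higher than the log mean (3 of 13 with DESeq2), with 0.0809% of lung counts against 7.14% in heart. *Myl7*, the atrial light chain, was at 134 CPM in lung and 1138 CPM in heart. Of 12 skeletal muscle genes 6 were higher than the log mean. The list took 0.0225%, 0.847% and 0.406% of counts in the wild-type and 0.395%, 0.18% and 0.404% in the *Scx*-/- lung libraries, against 29.8% in muscle. This share was uneven among libraries and lowest in the deepest one. Of 11 hepatocyte genes 5 were higher than the log mean, *Alb* among them at 491 CPM against 88836 CPM in liver. Red blood cell genes, of which 8 of 11 were higher (5 in the fit of 32 groups and 4 with limma-trend), took 6.95% of lung counts, from 2.92% to 11.4%, against 24.1% in spleen, and *Hbb-b1* had 43300, 12133 and 47803 CPM in wild-type and 75885, 95003 and 48527 CPM in *Scx*-/- lung. Globin paralogs share sequence, so their separate values are uncertain. The part of blood or of adjoining tissue in the results above was not tested.

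Lower genes were fewer. Of the 309, 274 had at least 50 CPM as the mean of the other tissues and 16 had no count in any lung library. These 16 compare with 8747 genes tested that had no count in lung. *Col2a1*, at 0 in lung and a mean of 630 CPM over the other tissues, was not called lower. The part of the log-scale contrast in the excess of higher calls was not tested, and against single tissues either direction could be the larger. A count of 0 over the 897660 counts of the 6 lung libraries allows up to 3.34 CPM (3 counts). *Clybl*, a mitochondrial lyase, had 0 counts in lung and a mean of 57.6 CPM over the other tissues, at least 17.2-fold lower (edgeR adjusted p 0.000484). *Ctse*, a gastric and immune cathepsin, also had 0 counts, at least 78.4-fold below a mean that stomach carried with 2423 CPM (edgeR adjusted p 0.014). *Fuom*, *Slc20a2* and *Lgr4* each had counts in 1 lung library, with log2 fold changes of -5.07, -4.97 and -4.12. *Lcmt1*, *Gstm5* and *Hsdl2* had a mean of 5.43, 9.37 and 6.81 CPM in lung against 72.6, 104 and 86.6 CPM over the other tissues. *Cela1* and *Klk1* (log2 fold changes -6.09 and -4.47) are digestive and glandular proteases whose highest level was in the adipose libraries, where pancreatic acinar genes took 50.9% of counts. Of 12 such genes *Cela1* alone was called lower in lung, while DESeq2 called 11. *Rnr2*, a mitochondrial ribosomal RNA, was the most counted of the lower genes, with 6840 to 12238 CPM in lung and a mean 3.72-fold lower than the 33331 CPM of the other tissues. In the fit of 32 groups the calls of *Ctse*, *Cela1*, *Fuom*, *Hsdl2*, *Klk1* and *Lgr4* were lost. *Ctse* also lost its call without stomach, without wild-type replicate 1 of lung and with libraries thinned, and *Cela1* with libraries thinned and without libraries under 50000 counts.

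Against single tissues, the most genes were called between lung and brain. It had 1600 genes higher and 2224 lower than cortex (7.11% and 9.89% of genes), and 1477 higher and 1547 lower than hippocampus (6.57% and 6.88%). Fewest were higher against rectum, 482 (2.14%), and fewest were lower against adipose, 371 (1.65%). Bladder, the most alike, had 546 higher and 640 lower (2.43% and 2.85%). Among the other hollow organs, stomach had 744 higher and 956 lower (3.31% and 4.25%), and intestine 939 and 741 (4.17% and 3.29%). Rectum had 573 lower (2.55%). Liver stood next to brain with 1274 higher and 1495 lower (5.66% and 6.65%), followed by kidney with 884 and 1288 (3.93% and 5.73%) and muscle with 906 and 1196 (4.03% and 5.32%). Spleen had 991 and 802 (4.41% and 3.57%), and adipose 799 higher (3.55%). Cartilage had 681 higher and 805 lower (3.03% and 3.58%), and bone 524 and 421 (2.33% and 1.87%). Heart had 609 and 777 (2.71% and 3.45%), and the vascular libraries 609 and 517 (2.71% and 2.3%). Library depth differed between tissues, and its part in these counts was not tested.

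**Figure D5:**
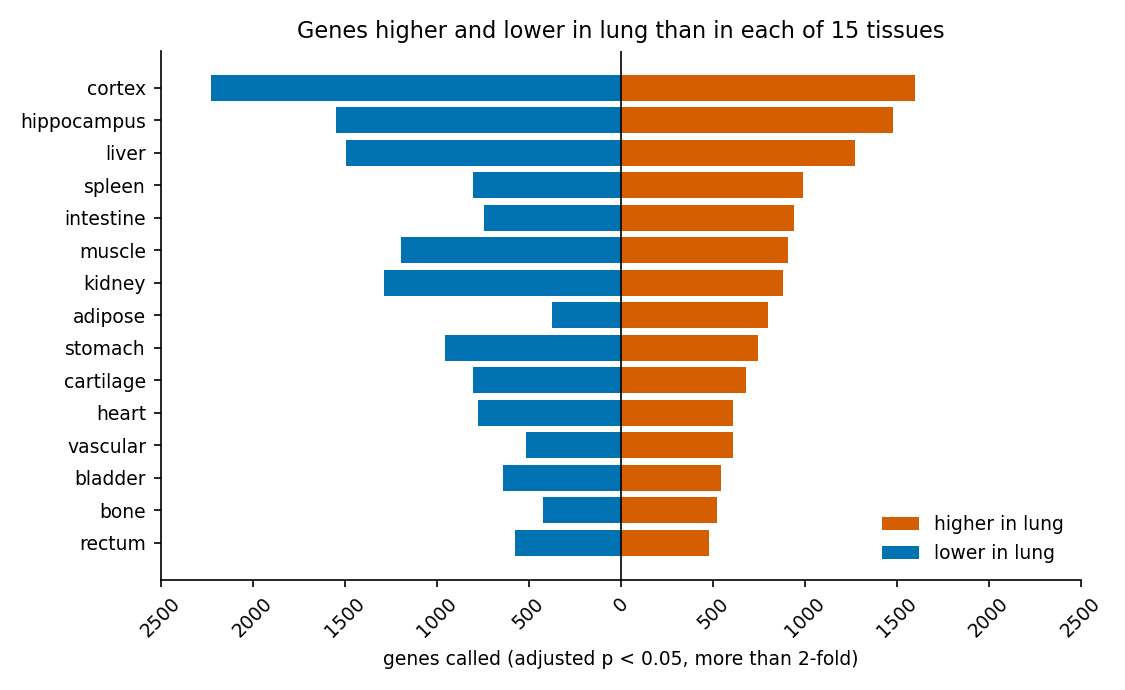
Number of genes higher (orange, right) and lower (blue, left) in lung than in each of 15 tissues, at an edgeR adjusted p under 0.05 and more than 2-fold. Cortex and hippocampus have the longest bars on both sides, with 1600 higher and 2224 lower genes for cortex.

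The lung pattern was then compared between genotypes. In wild-type mice alone 1097 genes were higher and 90 lower (4.88% and 0.4%), and in *Scx*-/- mice alone 1209 were higher and 124 lower (5.38% and 0.551%). Of the higher genes 573 were shared, 52.2% of the wild-type and 47.4% of the *Scx*-/- list. All 62 genes that stood above each tissue were called higher against the mean within each genotype, on libraries that also chose them. The interaction, which tests whether the lung contrast differs with genotype, called 0 genes at an adjusted p under 0.05 with edgeR, where 235 genes (1.04%) had an unadjusted p under 0.05. It called 192 genes with limma-trend on log2(CPM + 1) and 1 gene with edgeR on library totals. Lung of *Scx*-/- against lung of wild-type mice gave 0 genes in the edgeR fit of 32 groups and 595 (2.65%) at an unadjusted p under 0.05. The count of 0 depends on the scaling and the tool, and it does not show that the genotypes are alike.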

How the data were processed

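The deposited table holds whole-number counts for each gene symbol in 96 libraries. The authors extracted total RNA with Trizol, made barcoded libraries (described as 3′-enriched in the study and as Smart-seq2 based in the record of the series), mapped reads to mm10 with Bowtie2 and made these counts with HTSeq. Strand setting, molecular identifiers and tool versions were not given in the sources used here, so overlapping and antisense genes cannot be separated. From the counts, 19082 of 41575 symbols at 0 in all libraries were removed and 22493 tested with edgeR 4.0.16 (R 4.3.3): TMM factors, glmQLFit with robust estimation on tissue plus genotype, and the contrast of lung minus the mean of 15 tissue coefficients, two-sided, Benjamini-Hochberg adjusted over all genes. All genes took the trended quasi-likelihood spread, with infinite prior degrees of freedom, on a common negative binomial dispersion of 0.338. Genotypes were compared in a fit of 32 groups. SEs are approximate, the size of the log2 fold change divided by the square root of F. limma 3.58.1 and DESeq2 1.42.0 were alternatives, and the scripts were tested on simulated counts. Python 3.11.15 with numpy 2.4.6, pandas 2.3.3, scipy 1.17.1 and matplotlib 3.10.9 was used, and promoters and coordinates come from RefSeq (GRCm38.p6).

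The genes named are the 15 largest rises with at least 50 CPM and a count in all 6 lung libraries, the 10 largest falls with at least 50 CPM elsewhere, the 5 most counted genes, members of the lung cell lists, the 3 most counted members of other lists, and *Scx* (not every one is printed). *Adgrf5*, *Lyve1*, *Hif1a*, the 3 promoters shown and the members of other lists outside these were chosen after their values were seen. The members and lists were chosen with earlier results of these data known. Lists overlap, with genes such as *Sec14l3*, *Epas1*, *Mfap4* and *Slc34a2* in more than 1 of them. Intervals and limits at 0 counts cover counting error only. Depth was 46732 to 341964 counts in lung. Some items are not reported here.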

Additional observations from a re-analysis of the deposited data

Results flagged for a closer look

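In 8 of 45 values tested over the 6 lung libraries, 1 library lay far from the others, by the gap to its neighbour as a share of the whole range. Chance gives this in about 1 of 20 values. *Hbb-bs*, among the 8, was added to the tested values apart from the rule that chose the other genes, so the 8 cannot be set against that rate. Wild-type replicate 2, the shallowest lung library at 46732 counts, was the one in 6 of the 8. Its *Cyp2f2* level was 642 CPM, where the next was 1284 CPM, and its *Hbb-bs* level was 10742 CPM, where the next was 16.5 CPM. It had 0.0514% of counts in T cell and NK cell genes (next 0.0224%), 0.419% in hepatocyte genes (next 0.159%) and 0.154% in neutrophil genes (next 0.0902%), and the lowest share of general endothelial genes, 0.49% (next 0.746%). Wild-type replicate 3 had the highest share of brown fat genes, 0.0338% (next 0.0149%), and *Scx*-/- replicate 3 the highest share of squamous epithelium genes, 0.00746% (next 0.00264%). The causes were not tested.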

How the results depend on the processing

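Of 95 genes named, 68 kept their direction and call in all 34 refits, and 80 of the 84 called genes kept their direction. RLE factors gave 3002 genes higher and 149 lower, library totals 2683 and 177 (and 1 gene in the difference between genotypes), limma-trend on log2(CPM + 1) 1107 and 522 (and 192), DESeq2 727 and 504, and an older quasi-likelihood fit with estimateDisp, added after the data were seen, 2746 higher. The median log2 fold change of all genes was -0.0558 with RLE factors. Leaving out each lung library gave 1277 to 1706 genes higher, fewest without wild-type replicate 1, 233 to 292 lower, 42 to 60 above each tissue and 0 in the difference between genotypes. Leaving out each other tissue gave 1597 to 1821 higher and 292 to 385 lower. Signs turned for *Marco* (-2.21 without lung *Scx*-/- replicate 2), *Cd247* (-1.65 without lung *Scx*-/- replicate 3), *Muc5b* (-0.888 without lung wild-type replicate 1, -0.591 with libraries thinned) and *Hbb-bs* (-5.75 without lung wild-type replicate 2, -5.53 without libraries under 50000 counts), whose counts came from 1 lung library or nearly so. At most, these values reached 3.37 for *Marco* (without lung wild-type replicate 1), 3.85 for *Cd247* (without lung *Scx*-/- replicate 2), 3.59 for *Muc5b* (likewise) and 2.55 for *Hbb-bs* (without lung wild-type replicate 1). On the ratio to the arithmetic mean of the tissues, signs turned, among the genes printed here, for *Alb* (-3.65), *Bpifb1* (-2.38), *Marco* (-0.225), *Muc5b* (-0.954) and *S100a8* (-0.38), and for *Scx* (-0.30), which was not called. DESeq2, which gave 10904 genes no adjusted p, lost the calls of 14 named genes and the fit of 32 groups those of 14.

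The replicate numbers of the labels do not pair wild-type and *Scx*-/- libraries: same-numbered libraries had correlations of deviations from -0.105 to 0.0282 in 48 pairs, none over 0.1. With the replicate number as a block, 1538 genes were higher, 292 lower, 59 above each tissue and 0 in the difference between genotypes. A block within genotype, added after the data were seen, gave 1421 higher and 283 lower. The block ended the calls of *Cd247*, *Cd79b* and *Muc5b*.

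Depth limits these results: 8747 of the genes tested had no count in any lung library, and only 2355 had a count in all 6.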

Other observations

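*Hbb-bs* followed the replicate number and not the tissue: it had 296.2 to 50719 CPM in the 16 wild-type replicate 2 libraries and at most 94.63 CPM in the 80 others. *Xist* was above 100 CPM in 3 of the 6 lung libraries, wild-type replicates 1 and 3 and *Scx*-/- replicate 1, and the same numbers were above it in 13 of the 15 other tissues, all but bone and cartilage. The labels do not say that a number marks a mouse. The main fit took the 96 libraries as independent, and the fits with the replicate number as a block are given above. *Xist* was not balanced between the genotypes in lung, and its part in the results was not tested.

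Genes of lung lists at 0 in all 96 libraries include *Sftpb*, *Ager*, *Pdpn*, *Cldn5* and *Cxcl15*, and 8 listed symbols, such as *Deup1* and *Foxf1a*, were not found in the table.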
